A study of Mus musculus with 14 samples.

Results

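Collagen genes were followed in hippocampal RNA of 14 mice at postnatal day 15. The members were chosen by symbol alone, as every gene whose symbol is Col, a type number, a and a chain number. This gave 44 of the 36118 genes in the deposited table. All 44 had at least 10 counts in at least 3 libraries, 40 had at least 10 counts in every library, and all 44 passed edgeR's filter on low counts, so that none was left out of the tests. By the structure of their products, 11 were fibrillar, 8 basement membrane, 4 transmembrane, 9 FACIT, 6 beaded filament and 3 short chain network collagens, and 3 (Col7a1, Col26a1 and Col28a1) fell outside these classes.

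The libraries, 1 per mouse, came from 4 wild-type mice in room air (WT-RA), 4 wild-type mice in hyperoxia (WT-O2), 3 Gsdmd knockout mice in room air (KO-RA) and 3 Gsdmd knockout mice in hyperoxia (KO-O2). Hyperoxia was 85% O2 from postnatal day 1 to day 14. The labels give the breed of all 4 groups as C57/BL6. The knockout is a global CRISPR deletion of a short stretch in the fifth exon of Gsdmd, so that every cell of a KO mouse carries it, and the WT mice were littermates. The labels name no culture, litter or batch shared by mice. WT mice were numbered from GSD398 to GSD408 and KO mice from GSD489 to GSD496, so genotype and number range cannot be told apart. The title and the column name of GSD408 give hyperoxia, its treatment field gives room air, and it was used as WT-O2.

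Library totals lay between 27272270 and 28257496 estimated counts, and within a group the log2 CPM of any 2 libraries correlated across genes at 0.985 or more. Gsdmd had between 41 and 63 counts in the WT libraries and between 22 and 42 in the KO libraries. Its sum over transcripts does not show whether they carry the deletion, and so does not check the genotype. Markers of other regions differed between genotypes. All 9 striatal markers were called lower in KO-RA vs WT-RA, beside 6.7% of all genes. Their summed level was 385 to 522 CPM in WT-RA, 217 to 548 in WT-O2, 61.3 to 155 in KO-RA and 70.2 to 84.6 in KO-O2. Of 7 thalamic markers, 5 were called lower in the same comparison, beside the same 6.7%. Their sum was 546 CPM in WT-RA GSD398, 73.7 to 203 in the other WT-RA libraries, 148 to 396 in WT-O2, 69.8 to 90 in KO-RA and 78.6 to 93.7 in KO-O2. All 10 markers of hippocampal fields were called higher in KO-RA vs WT-RA, beside 3.75% of all genes, with sums of 645 to 894 CPM in WT-RA, 856 to 1050 in WT-O2, 1290 to 1620 in KO-RA and 1350 to 1560 in KO-O2. The markers of the choroid plexus, the epithelium that makes cerebrospinal fluid, summed to 46.5 CPM in KO-RA GSD489 and 119 in KO-O2 GSD494, against 948 to 3470 in the other 12 libraries. No marker of any list was at 0 in every library. The part of these differences in the collagen results, GSD398 among them where a result turns on it, was not tested, and results that rest on GSD489 and GSD494 are given with and without them.

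Collagens are secreted or membrane-bound proteins in which 3 chains wind into a triple helix. Fibrillar collagens such as types I, III and V build banded fibres, in the brain mostly in the meninges and around larger vessels. Type IV collagen forms the sheet-like network of basement membranes, which in brain tissue surround the vessels. FACIT collagens attach to fibres, type VI forms beaded filaments, type VIII hexagonal networks, and the transmembrane collagens sit in the cell membrane and can be shed. Within a type, chains are encoded by different genes and assemble in set combinations. Several partner genes lie head to head on a chromosome, and the pair that encodes the main type IV chains is shown here because its genes had the highest collagen levels and varied together. The windows of Col4a1 (ENSMUSG00000031502, chr8:11312777-11313076, minus strand) and Col4a2 (ENSMUSG00000031503, chr8:11312555-11312854, plus strand) run from 250 bases before to 50 bases from the annotated start. They are RefSeq sequences of build GRCm38.p6, read 5′ to 3′, and capitals mark the 78 bases that both windows hold on opposite strands.
Col4a1: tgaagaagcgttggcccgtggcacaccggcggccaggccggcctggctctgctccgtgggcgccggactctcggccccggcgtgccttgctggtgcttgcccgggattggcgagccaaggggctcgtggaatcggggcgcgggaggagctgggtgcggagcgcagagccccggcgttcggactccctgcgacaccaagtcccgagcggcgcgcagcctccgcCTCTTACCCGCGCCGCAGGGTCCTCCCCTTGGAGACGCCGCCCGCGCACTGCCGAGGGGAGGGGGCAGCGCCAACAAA
Col4a2: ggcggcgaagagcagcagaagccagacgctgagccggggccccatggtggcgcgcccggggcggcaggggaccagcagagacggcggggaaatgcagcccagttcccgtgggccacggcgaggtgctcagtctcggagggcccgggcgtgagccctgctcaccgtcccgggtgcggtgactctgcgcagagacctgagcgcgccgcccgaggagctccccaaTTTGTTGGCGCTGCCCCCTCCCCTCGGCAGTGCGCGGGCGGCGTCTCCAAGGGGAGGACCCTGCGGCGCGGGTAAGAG
The annotated starts lie 21 bases apart, and the transcripts overlap by 22 bases. The letters CCAAT, the core of the CCAAT box, were found on either strand in both windows, in 34.3% of the 35 member windows and in 37.4% of all 32851 windows in the table. They start 145 bases before the start of Col4a1 on the opposite strand, and 32 bases before the start of Col4a2. Windows of 35 of the 44 members were found.

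Levels were compared between genes as CPM (counts scaled to a common library size, with TMM factors) divided by the length in kb of the longest protein-coding transcript. On this scale, basement membrane collagens made up a median of 31.9% of the collagen level of a library (range 28% to 37%), and fibrillar collagens 22.2% (19.6% to 25.4%). FACIT collagens made up 18.1%, beaded filament collagens 10.9%, transmembrane collagens 8.68%, short chain network collagens 2.95% and the remaining 3 genes 4.48%. Basement membrane collagens thus held the largest share in each of the 14 libraries. The chains of a class were far from even. Among basement membrane collagens, the mean level over the 14 libraries ran from 20.2 CPM per kb for Col4a1 and 14.7 for Col4a2 to 0.306 for Col4a4. Among fibrillar collagens it ran from 7.66 for Col1a2 and 5.46 for Col1a1 to 0.196 for Col2a1, the type II chain of cartilage. Among transmembrane collagens it ran from 7.85 for Col25a1 and 3.27 for Col23a1 to 0.101 for Col17a1, the hemidesmosome collagen of skin. The third highest of all members was Col9a3, a type IX chain, at 14.1 CPM per kb, while its partners Col9a1 and Col9a2 were at 0.446 and 2.05. In the annotation, 6.07% of the exon bases of Col9a3 are shared with Tcfl5 on the opposite strand, and reads from there may be split between the genes.

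**Figure D1:**
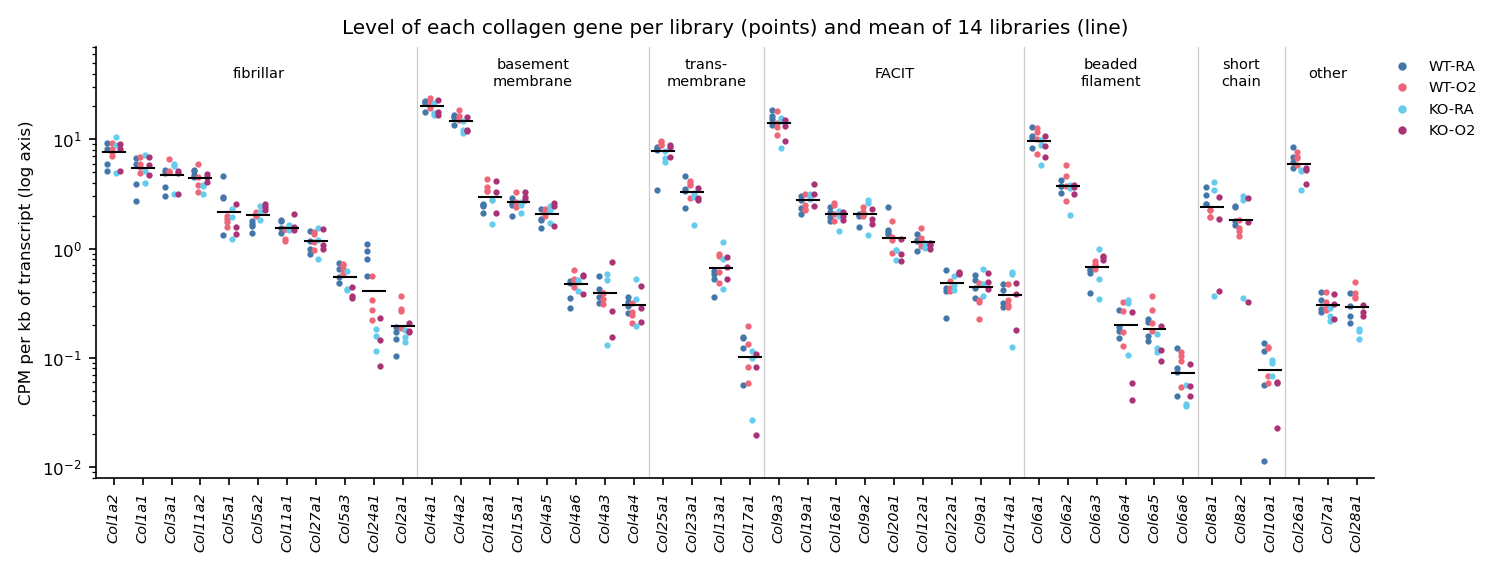
The level of each collagen gene in CPM per kb of transcript, on a log axis, with 1 point per library coloured by group and a line at the mean of 14 libraries. Col4a1 was highest at 20.2 CPM per kb and Col6a6 lowest at 0.072.

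The first question was whether hyperoxia changed collagen RNA in WT mice. Of the 44 members, 1 (2.27%) was called in WT-O2 vs WT-RA, beside 0.643% of the 16637 genes in the test. Calling required a log2 fold change of 0.32 or more in size, p below 0.05 and q below 0.1, where q is the two-sided p of edgeR's quasi-likelihood test adjusted over every gene in the fit. Each library is 1 mouse, so these p-values measure the spread between mice. The 4 comparisons share groups with each other, and each is given by its own values. The called gene was Col24a1, which was lower in WT-O2. An unadjusted p below 0.05 was reached by 6 members (13.6%), beside 12.2% of all genes. The WT-RA and WT-O2 libraries did not overlap in 6 members (13.6%), beside 5.99% of all genes. Across the 44 members, 28 fold changes were positive and 16 negative, and their median was 0.11 on the log2 scale, beside -0.01 over all genes.

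Col24a1 (ENSMUSG00000028197) encodes the chain of type XXIV collagen, a fibrillar collagen of developing bone and cornea that is also found in the brain. Its level, in order of mouse number as in all lists here, was 4.04, 6.76, 7.88 and 5.74 CPM in the WT-RA libraries and 2.42, 1.97, 1.59 and 4 CPM in the WT-O2 libraries. It was 0.817, 1.12 and 1.32 CPM in the KO-RA libraries and 1.04, 1.65 and 0.6 CPM in the KO-O2 libraries. All 4 WT-RA libraries were thus above every other library, though GSD398, the lowest of them, was close to GSD408, the highest of WT-O2, and all KO-RA libraries were below every WT library. These levels rest on 111 to 223 counts in WT-RA, 45 to 114 in WT-O2, 22 to 37 in KO-RA and 16 to 45 in KO-O2. The log2 fold change was -1.29 in WT-O2 vs WT-RA (SE 0.3, edgeR q = 0.0885) and -2.49 in KO-RA vs WT-RA (SE 0.36, edgeR q = 0.000771). It was -1.18 in KO-O2 vs WT-O2 (SE 0.37, edgeR q = 0.076), where GSD494 and GSD406 overlapped, and 0.02 in KO-O2 vs KO-RA (95% confidence interval -0.87 to 0.9). The drop in KO-RA was called with each library left out in turn. The drop in WT-O2 was not called without any of GSD399, GSD400, GSD401, GSD404, GSD405, GSD406, GSD490, GSD496 or GSD491, with fold changes of -1.61 to -1.12 and q of 0.0377 to 0.293 over the 14 such fits, with GSD408 as room air (q = 0.132), or in a fit of these 2 groups alone (q = 0.174). In KO-O2 vs WT-O2 the call was lost, while the log2 fold change stayed negative, without GSD399 (-1.17), GSD408 (-0.85), GSD491 (-1.14) or GSD495 (-0.89), with GSD408 as room air (-0.86, q = 0.243), and in a fit of the 2 groups alone (-1.17, q = 0.101).

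Markers of the subplate and deep cortical layers were set beside Col24a1. Of these 7 markers, Cplx3 was called lower by exposure in WT mice, beside 0.295% of all genes. By genotype, 5 were called lower in room air, beside 6.7% of all genes, and 4 in hyperoxia, beside 4.35%. Fezf2, a factor of deep-layer neurons, had positive log2 fold changes in the same 3 comparisons (0.19, 0.45 and 0.41), none of them called. Their summed level was 157 to 327 CPM in WT-RA, 179 to 209 in WT-O2, 129 to 154 in KO-RA and 126 to 155 in KO-O2. Their part in the Col24a1 result was not tested, and in bulk tissue fewer cells that express a gene and less RNA per cell cannot be told apart. The promoter window of Col24a1 (chr3:145292222-145292521, plus strand, RefSeq, GRCm38.p6) is shown because Col24a1 was the member with the largest difference. Capitals mark TGACGTCA, the cAMP response element, which was noticed on reading the window.
Col24a1: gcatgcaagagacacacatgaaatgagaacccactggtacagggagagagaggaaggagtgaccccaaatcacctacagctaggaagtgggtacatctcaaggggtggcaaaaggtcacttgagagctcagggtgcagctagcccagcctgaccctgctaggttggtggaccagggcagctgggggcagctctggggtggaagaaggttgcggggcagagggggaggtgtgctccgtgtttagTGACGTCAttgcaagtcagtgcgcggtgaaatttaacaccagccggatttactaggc
The element begins 7 bases before the annotated start and reads the same on both strands. It was found in 1.79% of the 32851 windows of the same length and in 1 of the 35 member windows, and a match of letters does not show that a factor binds there.

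Among the other fibrillar collagens, Col5a2 (ENSMUSG00000026042), the second chain of type V collagen, was 11.9, 11.1, 9.22 and 10.7 CPM in WT-RA and 13.5, 14.1, 14.3 and 13.2 CPM in WT-O2. It was 12.1, 16.1 and 14.4 CPM in KO-RA and 16, 15 and 16.9 CPM in KO-O2. WT-RA lay below each of the other 3 groups without overlap. Its log2 fold change was 0.41 in KO-RA vs WT-RA (SE 0.1, edgeR q = 0.0216), and 0.36 in WT-O2 vs WT-RA (SE 0.1, edgeR q = 0.14), which was not called. The call in KO-RA was lost without GSD490 (q = 0.113). Its partner Col5a1 (ENSMUSG00000026837), the first chain of type V collagen, was 11.2, 24.3, 38.4 and 25.1 CPM in WT-RA, 13.3 to 16.7 in WT-O2, 10.3 to 19.3 in KO-RA and 11.4 to 21.6 in KO-O2. GSD398 sat with the other groups and the other 3 WT-RA libraries above them, and no comparison of Col5a1 was called (log2 fold change -0.71 in WT-O2 vs WT-RA, edgeR q = 0.344). Without GSD398 it was called lower in WT-O2 (-0.95, edgeR q = 0.0781) and in KO-RA (-0.93, edgeR q = 0.0311).

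The chains of type I collagen, the fibrillar genes of highest level per length, were not called in any comparison. Col1a1 (ENSMUSG00000001506) was 40, 35.2, 16.1 and 23.1 CPM in WT-RA, 29.1, 40.6, 33.4 and 35.6 in WT-O2, 23.4, 42.7 and 30.5 in KO-RA, and 40.6, 28.2 and 34.7 in KO-O2. Col1a2 (ENSMUSG00000029661) was 49.1, 43.5, 27.4 and 31.6 CPM in WT-RA, 37.9, 49.7, 40.8 and 43.9 in WT-O2, 26.2, 56 and 47.7 in KO-RA, and 48.9, 27.7 and 43.4 in KO-O2. Both chains of type I collagen, the main fibre protein of the meninges, had their 4 lowest values in WT-RA GSD400 and GSD401, KO-RA GSD489 and KO-O2 GSD494, and the groups overlapped. The 95% confidence interval of the log2 fold change of Col1a1 was -0.24 to 0.79 in WT-O2 vs WT-RA and -0.38 to 0.72 in KO-RA vs WT-RA. Col2a1 was 0.787 ± 0.196 CPM (SD, n = 4) in WT-RA and 1.4 ± 0.37 in WT-O2, a log2 difference of 0.83 that was not called (edgeR q = 0.172).

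No basement membrane collagen was called in any of the 5 comparisons as fitted to all 14 libraries. The shares of all genes called were 0.643% in WT-O2 vs WT-RA, 0.012% in KO-O2 vs KO-RA, 10.4% in KO-RA vs WT-RA, 6.86% in KO-O2 vs WT-O2 and 0% for the interaction. No call among 8 genes is near these shares. Col4a1 was 141, 149, 146 and 117 CPM in WT-RA, 145, 143, 128 and 158 in WT-O2, 114, 142 and 111 in KO-RA, and 118, 110 and 153 in KO-O2. Col4a2 was 107, 104, 104 and 87 CPM in WT-RA, 99.4, 106, 96.5 and 120 in WT-O2, 79.3, 94.2 and 73.9 in KO-RA, and 78.3, 76.8 and 104 in KO-O2. For Col4a2, 2 of the 3 libraries of each KO group were below every WT library and the third lay among them, while the groups overlapped more for Col4a1. The log2 fold change of Col4a2 was -0.29 in KO-RA vs WT-RA (SE 0.12, edgeR q = 0.153) and -0.29 in KO-O2 vs WT-O2 (SE 0.12, edgeR q = 0.184). It was called lower in KO-RA with GSD408 as room air (-0.34, q = 0.0691), without GSD401 (-0.35, q = 0.097) and without GSD490 (-0.39, q = 0.0895), and in KO-O2 without GSD495 (-0.45, q = 0.0566). For hyperoxia in WT mice the 95% confidence intervals were -0.18 to 0.29 for Col4a1 and -0.16 to 0.3 for Col4a2. Summed markers of endothelial cells, which make type IV collagen, were 268 to 318 CPM in WT-RA, 267 to 296 in WT-O2, 270 to 290 in KO-RA and 219 to 309 in KO-O2. Those of mural cells of the vessel wall were 306 to 349 CPM in WT-RA, 311 to 351 in WT-O2, 366 to 407 in KO-RA and 275 to 398 in KO-O2. In KO-RA vs WT-RA, 7 mural markers were positive and 3 negative, and Rgs5 was the largest part (196 and 234 CPM in WT-RA and KO-RA). In both lists 0 of 10 were called in any comparison, beside the shares above. The part of either cell type was not tested.

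Col18a1 (ENSMUSG00000001435), the basement membrane collagen from which endostatin is cut, was 14.1, 13.7, 11.8 and 14.3 CPM in WT-RA and 19, 24.3, 18.9 and 20.6 CPM in WT-O2. It was 9.43, 15.5 and 15.7 CPM in KO-RA and 18.6, 11.9 and 23.1 CPM in KO-O2. The WT groups did not overlap, and the KO groups did. The log2 fold change in WT-O2 vs WT-RA was 0.62 (SE 0.18) and was not called (edgeR q = 0.18), but DESeq2 called it (adjusted p = 0.0386), as did edgeR without GSD489 and GSD494 (q = 0.0465). The change in KO-O2 vs KO-RA was 0.4 (edgeR q = 0.997), and the difference between the genotypes in the response was -0.22 (95% confidence interval -0.82 to 0.38).

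None of the 4 transmembrane collagens was called either, which is near the same shares of all genes (at most 10.4%, in KO-RA vs WT-RA). Col25a1 (ENSMUSG00000058897), a neuronal collagen first found in amyloid plaques, was 55.8, 53.1, 22.8 and 57.2 CPM in WT-RA, 59.4, 64.1, 59.3 and 62.9 in WT-O2, 52.9, 41.9 and 45 in KO-RA, and 46.6, 59 and 56.8 in KO-O2. WT-O2 lay above WT-RA in every library, the WT-RA mean was lowered by GSD400, and the log2 fold change was 0.38 (SE 0.2, edgeR q = 0.479). Col23a1 (ENSMUSG00000063564) was 13.3, 19, 19.9 and 25.9 CPM in WT-RA, 16.5, 21.4, 23.3 and 22.6 in WT-O2, 9.36, 18.2 and 16.8 in KO-RA, and 16.4, 20.4 and 15.7 in KO-O2, and its groups overlapped. Col13a1, a transmembrane collagen of cell junctions, was 1.13 to 1.97 CPM in WT-RA and 1.34, 3.64 and 2.53 CPM in KO-RA. GSD489 lay within the WT-RA range and the other KO-RA libraries above it, and the log2 fold change of 0.6 was not called (edgeR q = 0.268), but it was called without GSD489 and GSD494. Col17a1 rested on 3 to 31 counts a library, and its 95% confidence interval of -1.1 to 1.01 in WT-O2 vs WT-RA allows a change either way.

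In KO mice, hyperoxia gave no called collagen gene (0 of 44), beside 0.012% of all genes, and DESeq2 called 0 members as well. By edgeR, 2 of the 44 (4.55%) had an unadjusted p below 0.05, beside 4.86% of all genes. They were Col28a1 (log2 fold change 0.66, q = 0.997) and Col15a1, a basement membrane collagen (0.31, q = 0.997), both higher in KO-O2. The KO-RA and KO-O2 libraries did not overlap in 5 members (11.4%), beside 11.8% of all genes. No member was called for the interaction of genotype and exposure by edgeR or DESeq2, beside 0% of all genes by edgeR. The interaction had an unadjusted p below 0.05 by edgeR for Col24a1 (1.3 on the log2 scale, SE 0.51, q = 1) and Col11a2 (0.47, SE 0.21, q = 1), which are 4.55% of the members beside 4.05% of all genes. A difference between the genotypes in the response of these genes was therefore not shown.

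The second question was how KO mice differed from WT mice under the same exposure. In KO-RA vs WT-RA, 6 of 44 members (13.6%) were called, beside 10.4% of all genes. Col5a2 was higher, and Col24a1, Col20a1, Col26a1, Col28a1 and Col11a2 were lower, so that 11.4% of members were called lower beside 6.7% of all genes. In KO-O2 vs WT-O2, 3 of 44 (6.82%) were called, beside 6.86% of all genes. These were Col5a3, Col24a1 and Col6a5, all lower in KO-O2, beside 4.35% of all genes called lower. The groups did not overlap in 6 members (13.6%) in room air and in 7 (15.9%) in hyperoxia, beside 19.6% and 19% of all genes. Without GSD489 and GSD494, 4 members were called in room air (Col5a2, Col24a1, Col13a1 and Col9a2) and 4 in hyperoxia (Col5a3, Col24a1, Col6a4 and Col6a5).

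**Figure D2:**
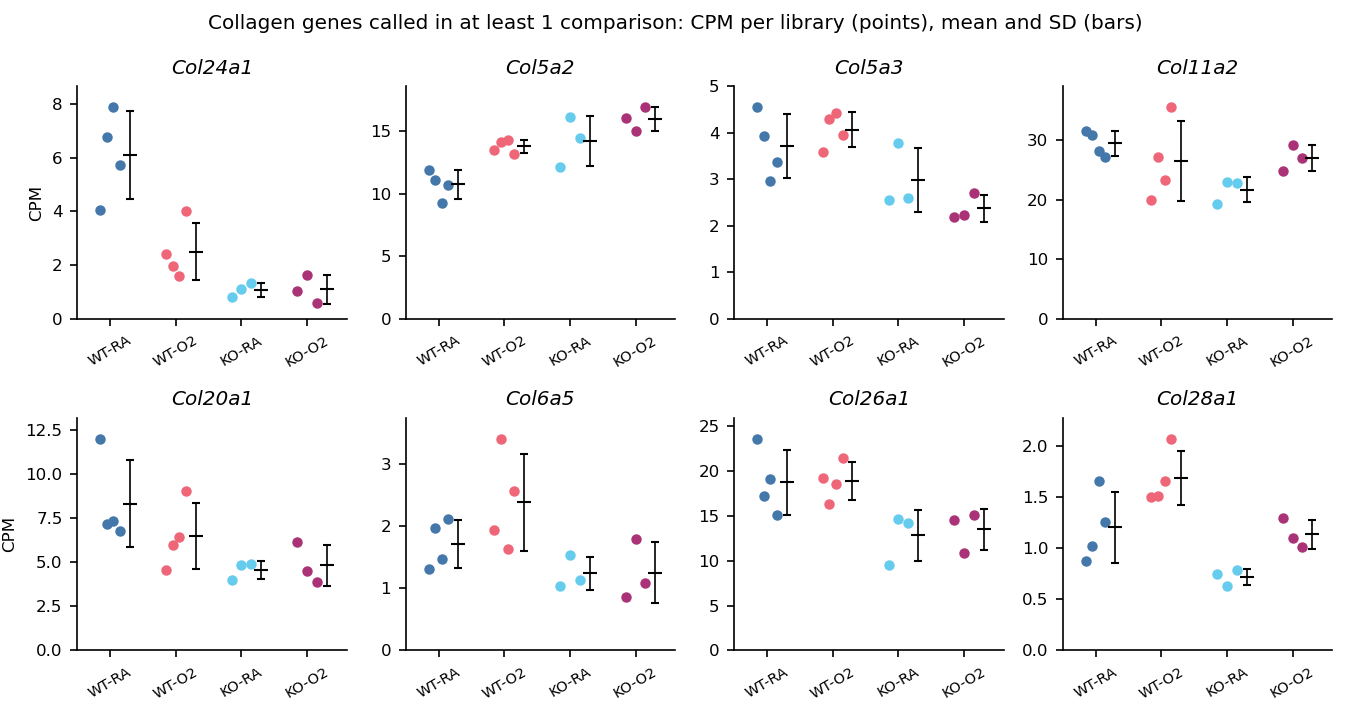
CPM in each library (points, coloured by group) of the 8 members called in at least 1 comparison, with the mean and SD of each group as bars and n = 4, 4, 3 and 3. The 4 WT-RA libraries of Col24a1 lie between 4.04 and 7.88 CPM and all 6 KO libraries at 1.65 CPM or less.

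Col5a3 (ENSMUSG00000004098), the third chain of type V collagen, was 4.55, 3.94, 2.97 and 3.37 CPM in WT-RA, 3.59, 4.3, 4.43 and 3.96 in WT-O2, 2.56, 3.78 and 2.6 in KO-RA, and 2.18, 2.24 and 2.7 in KO-O2. The KO-O2 libraries were below every WT library. KO-O2 vs WT-O2 gave a log2 fold change of -0.78 (SE 0.18, edgeR q = 0.0204), and it was called with each library left out in turn, with q between 0.0138 and 0.0865. In room air it was -0.31 (SE 0.18, edgeR q = 0.318).

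Col6a5 (ENSMUSG00000091345), a chain of the beaded filaments of type VI, was 1.31, 1.97, 1.48 and 2.12 CPM in WT-RA, 1.94, 3.41, 1.63 and 2.56 in WT-O2, 1.04, 1.54 and 1.14 in KO-RA, and 0.859, 1.8 and 1.09 in KO-O2. KO-O2 GSD494 lay within the WT-O2 range, and the other KO-O2 libraries below it. On the log2 scale KO-O2 vs WT-O2 was -0.93 (SE 0.3, edgeR q = 0.0902). The call was lost without any of GSD399, GSD405, GSD408, GSD489, GSD490, GSD496, GSD491 or GSD495 (q up to 0.283), with GSD408 as room air (q = 0.197), and in a fit of the 2 groups alone (q = 0.122). The more abundant chains of type VI, Col6a1 and Col6a2, were 43.3 ± 7.52 and 17.4 ± 1.97 CPM in WT-RA (SD, n = 4) and 33.6 ± 8.85 and 14.6 ± 4.59 in KO-RA (SD, n = 3), and were not called in any comparison.

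Col20a1 (ENSMUSG00000016356), a FACIT collagen, was 12, 7.15, 7.35 and 6.74 CPM in WT-RA, 4.54, 5.95, 6.41 and 9.01 in WT-O2, 3.97, 4.83 and 4.91 in KO-RA, and 6.12, 4.51 and 3.86 in KO-O2. The KO-RA libraries were below every WT-RA library, and GSD398 was the highest of all. KO-RA vs WT-RA gave a log2 fold change of -0.86 (SE 0.24, edgeR q = 0.038), and the call was lost without GSD489 (q = 0.149) and without GSD489 and GSD494 (q = 0.171). Markers of oligodendrocyte precursors, which express Col20a1 in the brain, summed to 633 to 938 CPM in WT-RA and 572 to 640 in KO-RA. Of these 7 markers, 3 (Cacng4, Sox10 and Gpr17) were called lower in KO-RA, beside 6.7% of all genes. Among those not called were Cspg4 (mean 44.2 CPM in WT-RA and 39 in KO-RA) and C1ql1 (26.2 CPM in both), so that not every precursor marker was lower. Negative log2 fold changes were seen in 6 and a positive one in 1, Pdgfra (mean 97.2 CPM in WT-RA and 106 in KO-RA). Gpr17 made up the largest part of the sum (379 and 274 CPM). The part of these markers in the Col20a1 result was not tested.

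Col26a1 (ENSMUSG00000004415), a short collagen, was 23.6, 17.2, 19.1 and 15.1 CPM in WT-RA, 19.2, 16.3, 18.6 and 21.5 in WT-O2, 9.55, 14.7 and 14.2 in KO-RA, and 14.5, 10.9 and 15.1 in KO-O2. The KO libraries of each exposure lay below the WT libraries of the same exposure without overlap. Its log2 fold change was -0.55 in room air (SE 0.17, edgeR q = 0.0604), called, and -0.49 in hyperoxia (SE 0.17, edgeR q = 0.128), not called by edgeR but called by DESeq2 (adjusted p = 0.0733). The call in room air was lost without GSD398 (q = 0.152), without GSD489 (q = 0.247), without GSD489 and GSD494 (q = 0.209), and in a fit of the 2 groups alone (q = 0.126).

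Col28a1 (ENSMUSG00000068794), which encodes a collagen with von Willebrand factor A domains, was 0.873, 1.02, 1.66 and 1.26 CPM in WT-RA, 1.5, 1.51, 1.66 and 2.07 in WT-O2, 0.743, 0.63 and 0.783 in KO-RA, and 1.29, 1.1 and 1.01 in KO-O2. The 3 KO-RA libraries were the lowest of the 14. These levels rest on 18 to 59 counts a library. On the log2 scale KO-RA vs WT-RA was -0.74 (SE 0.25, edgeR q = 0.0741). DESeq2 gave an adjusted p of 0.107, and the call was lost without any of GSD400, GSD401, GSD489, GSD490 or GSD496 (edgeR q up to 0.213), without GSD489 and GSD494 (q = 0.188), with no filter on low counts (q = 0.135) and in a fit of the 2 groups alone (q = 0.184).

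Col11a2 (ENSMUSG00000024330), a type XI chain of the fibrillar class, was 31.6, 31, 28.3 and 27.3 CPM in WT-RA, 20, 27.2, 23.3 and 35.6 in WT-O2, 19.3, 23 and 22.8 in KO-RA, and 24.8, 29.2 and 27.1 in KO-O2. KO-RA lay below WT-RA and below KO-O2 without overlap, and WT-O2 spread over the range of all groups. The log2 fold change in KO-RA vs WT-RA was -0.44 (SE 0.15, edgeR q = 0.0747), and the call was lost without any of GSD398, GSD399, GSD489, GSD490 or GSD496 (q up to 0.253), and without GSD489 and GSD494 (q = 0.27).

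**Figure D3:**
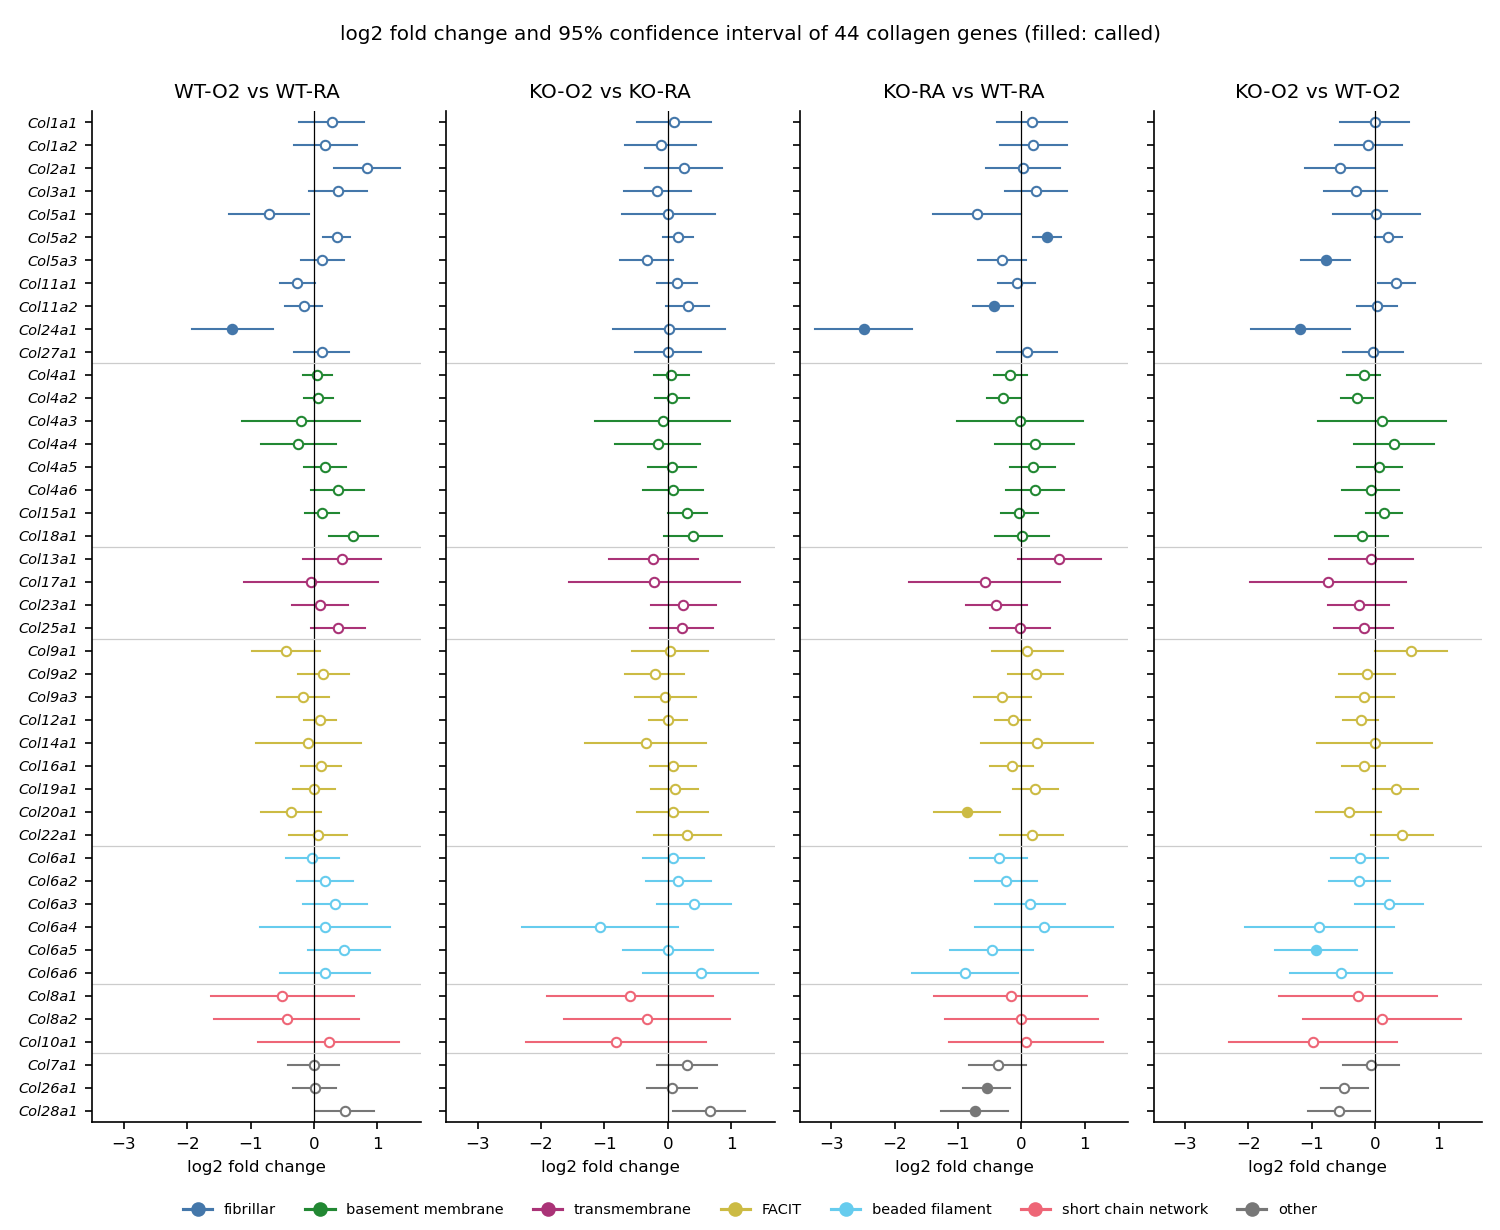
The log2 fold change (points) and its 95% confidence interval (lines) for each of 44 collagen genes, coloured by class, in 4 comparisons, with filled points for called genes. The basement membrane and transmembrane genes have no filled point, and the largest difference is that of Col24a1 in KO-RA vs WT-RA, -2.49.

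The classes were set side by side by the median log2 fold change of their members, with no test, because genes of a class are not replicates. In WT-O2 vs WT-RA the medians were 0.13 for fibrillar, 0.1 for basement membrane and 0.24 for transmembrane collagens, beside -0.01 over all genes. In KO-O2 vs KO-RA they were 0.02, 0.06 and 0.01, beside 0 over all genes. In KO-RA vs WT-RA they were 0.03, -0.01 and -0.21, and in KO-O2 vs WT-O2 -0.04, -0.01 and -0.22, beside -0.01 over all genes in both. The spread within a class was wider than the gaps between these medians: in KO-RA vs WT-RA, fibrillar members ran from -2.49 to 0.41, basement membrane members from -0.29 to 0.22 and transmembrane members from -0.58 to 0.6. In the fit to all 14 libraries, the called members of the 3 classes were fibrillar. Of 11 fibrillar genes, Col5a2, Col11a2 and Col24a1 were called in KO-RA vs WT-RA, beside 10.4% of all genes. Col5a3 and Col24a1 were called in KO-O2 vs WT-O2, beside 6.86%, and Col24a1 in WT-O2 vs WT-RA, beside 0.643%. The 8 basement membrane and 4 transmembrane genes had no call there, but Col4a2, Col18a1 and Col13a1 were called in some of the alternative fits. The summed level of fibrillar collagens was 187 ± 22.4 CPM in WT-RA, 191 ± 22.5 in WT-O2 (SD, n = 4), 180 ± 43.5 in KO-RA and 184 ± 13.9 in KO-O2 (SD, n = 3). That of basement membrane collagens was 287 ± 25.5, 307 ± 25.3, 255 ± 31.3 and 271 ± 49.1 CPM in the same order, and that of transmembrane collagens 69.1 ± 17.7, 85.3 ± 5.19, 64.3 ± 0.578 and 74.2 ± 7.84.

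Chains of the same type were compared library by library. For 8 pairs, the log2 CPM of each gene was taken as its deviation from its group mean in 14 libraries, and tested by an exact two-sided permutation within groups, adjusted over the 8 pairs. The chains of type I, Col1a1 and Col1a2, correlated at r = 0.9 (exact p = 9.65e-05, adjusted 0.000772) and rho = 0.96 (exact p = 9.65e-05, adjusted 0.000772), and r was 0.91 without the 2 libraries farthest from the median. Col4a1 and Col4a2 correlated at r = 0.96 (exact p = 0.000627, adjusted 0.00164) and rho = 0.95 (exact p = 0.00082, adjusted 0.00219), and r was 0.93 without the 2 farthest. These are the genes whose shared start region is printed above, and whether that region has a part in the correlation was not tested. All 8 pairs are partner chains or neighbouring genes, and no pair of unrelated collagens was tested. The correlations are therefore not shown to be particular to such pairs. Col6a1 and Col6a2 correlated at r = 0.88 (exact p = 0.00082, adjusted 0.00164) and rho = 0.83 (exact p = 0.00188, adjusted 0.00376), and at r = 0.75 without the 2 farthest. Col3a1 and Col5a2, chains of different types whose genes are neighbours, correlated at r = 0.86 (exact p = 0.00265, adjusted 0.00424) and rho = 0.83 (exact p = 0.00646, adjusted 0.0103), and at r = 0.8 without the 2 farthest. The chains of type V, Col5a1 and Col5a2, did not vary together (r = -0.3, exact p = 0.449, adjusted 0.449, and rho = -0.23, exact p = 0.519, adjusted 0.519), and r was 0.33 without the 2 farthest. Without GSD489 and GSD494, r was 0.98 for the type I pair (exact p, adjusted, 0.00347), 0.96 for Col4a1 and Col4a2 (0.0104), 0.88 for Col6a1 and Col6a2 (0.0104), 0.77 for Col3a1 and Col5a2 (0.0451) and -0.74 for the type V pair (0.187). For Col3a1 and Col5a2, rho was then 0.64 with an adjusted exact p of 0.103.

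The remaining type IV pairs rested on GSD489 and GSD494. Col4a3 and Col4a4 correlated at r = 0.86 (exact p = 0.0159, adjusted 0.0212) and rho = 0.66 (exact p = 0.076, adjusted 0.101) over 14 libraries, and r was 0.71 without the 2 farthest. Without GSD489 and GSD494 r was 0.58 (exact p = 0.249). Col4a5 and Col4a6 correlated at r = 0.66 (exact p = 0.0361, adjusted 0.0413) and rho = 0.52 (exact p = 0.114, adjusted 0.13), r was 0.5 without the 2 farthest, and without GSD489 and GSD494 r was 0.42 (exact p = 0.51).

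Type VIII collagen was among the collagens lowest in GSD489 and GSD494. These were also the lowest libraries for Col4a3 (1.11 and 1.32 CPM), Col14a1 (0.817 and 1.17), Col17a1 (0.149 and 0.11) and Col9a3 (25.4 and 29.5). Col8a1 (ENSMUSG00000068196) was 18.8, 13.2, 13.1 and 15.8 CPM in WT-RA, 10, 11.6, 9.98 and 11.6 in WT-O2, 1.89, 17.7 and 20.9 in KO-RA, and 9.52, 2.09 and 15.3 in KO-O2. Col8a2 (ENSMUSG00000056174) was 10.7, 7.68, 7.07 and 10.4 CPM in WT-RA, 5.64, 6.67, 6.3 and 7.96 in WT-O2, 1.52, 12.1 and 13.2 in KO-RA, and 7.52, 1.39 and 12.6 in KO-O2. GSD489 and GSD494, the lowest libraries for both genes, are also those with the lowest choroid plexus markers, and the part of the choroid plexus in the result was not tested. Because these libraries form a cluster of their own, the pair was tested over the other 12, where it correlated at r = 0.93 (exact p = 0.00521, adjusted 0.0104) and rho = 0.9 (exact p = 0.00955, adjusted 0.02). All 4 WT-O2 libraries were below all 4 WT-RA libraries for Col8a1, but the log2 fold change of -0.5 was not called (edgeR q = 0.765).

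**Figure D4:**
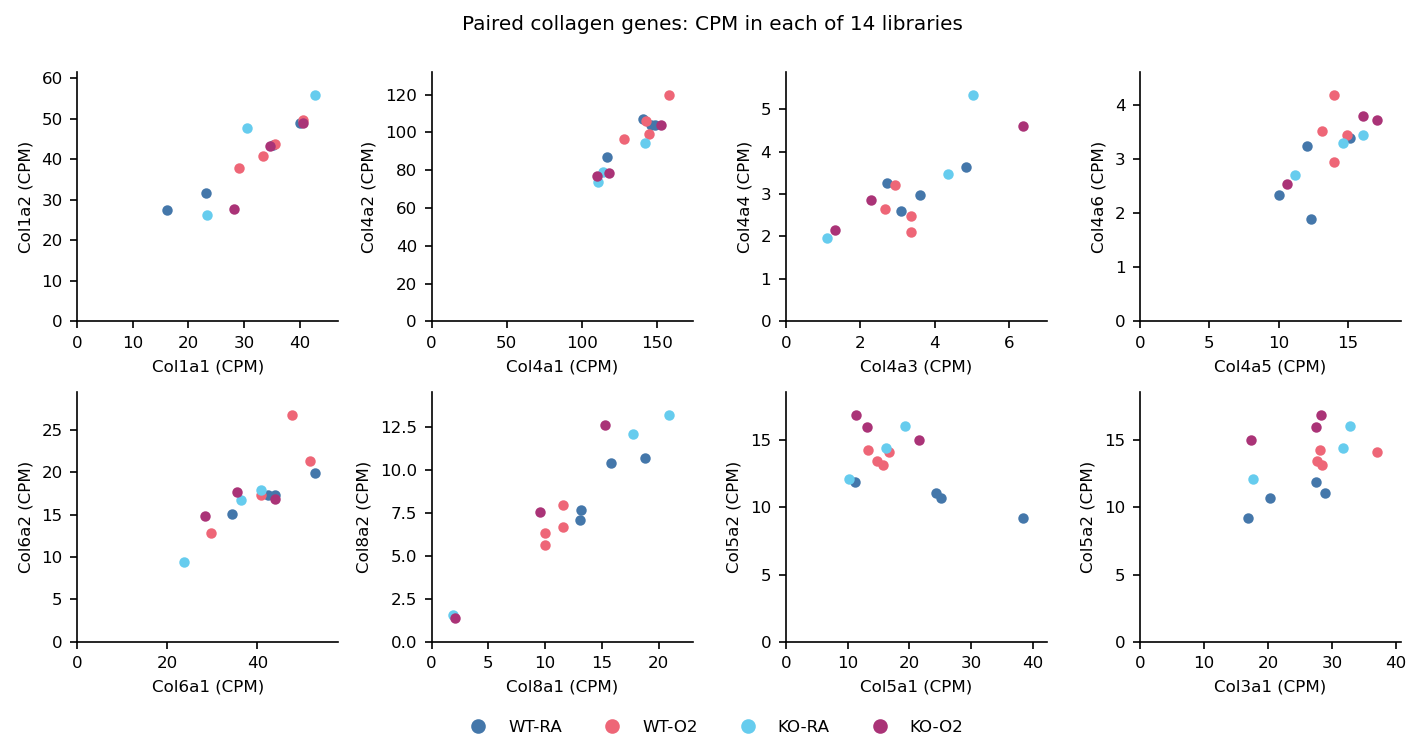
CPM of 1 gene against that of its partner in each of 14 libraries (points, coloured by group) for 8 pairs of collagen genes, with axes from 0. Col1a1 with Col1a2 and Col4a1 with Col4a2 lie along a line, Col5a1 with Col5a2 do not, and KO-RA GSD489 and KO-O2 GSD494 sit apart near the origin for Col8a1 and Col8a2.

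Genes that act on collagen were read from 5 lists, beside 10.4% of all genes called in KO-RA vs WT-RA and 6.86% in KO-O2 vs WT-O2. None of their genes was called for exposure, beside 0.643% of all genes in WT mice and 0.012% in KO mice, or for the interaction, beside 0%. No call in these lists is near those shares. Among 17 genes of chain modification and folding, 1 was called: P4ha3, a prolyl hydroxylase subunit, was 4.96 ± 0.181 CPM in WT-O2 (SD, n = 4) and 3.69 ± 0.603 in KO-O2 (SD, n = 3), which is -0.43 on the log2 scale (edgeR q = 0.0738). Serpinh1, the collagen chaperone HSP47, was not called and lay between 32.8 and 51.6 CPM in all libraries. Among 14 genes of procollagen cleavage and crosslinking, 3 were called in KO-RA vs WT-RA. Loxl1, a lysyl oxidase that crosslinks fibres, was higher by 0.69 (edgeR q = 0.0401), and Pxdn, the peroxidasin that crosslinks type IV collagen, was higher by 0.35 (q = 0.015). Tll2, a tolloid-like proteinase, was lower (-0.9, edgeR q = 0.0923). It lay between 0.534 and 2.18 CPM in all libraries, and KO-RA GSD489 at 1.37 CPM was within the WT-RA range of 1.22 to 2.18 CPM.

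Of the 10 collagen receptors, 9 passed the filter, and 1 was called: Ddr1, a receptor tyrosine kinase that binds collagen, was 114 ± 28.5 CPM in WT-RA (SD, n = 4) and 71.2 ± 7.91 in KO-RA (SD, n = 3), which is -0.68 on the log2 scale (edgeR q = 0.0418). Of the 10 genes of collagen degradation, 8 passed the filter, and 1 was called: Timp2, an inhibitor of matrix metalloproteinases, was 556 ± 28.5 CPM in WT-O2 (SD, n = 4) and 432 ± 23.5 in KO-O2 (SD, n = 3), which is -0.36 on the log2 scale (edgeR q = 0.022). Among 16 partners of type IV collagen in basement membranes, those called in KO-O2 vs WT-O2 were lower in KO-O2. They included the laminin chain Lama4, with a log2 fold change of -0.38 (edgeR q = 0.0989), and Nid1, which links laminin to type IV collagen, with -0.43 (q = 0.0705). The median of the 16 in this comparison was -0.2, with 13 negative. The median of the 8 basement membrane collagens was -0.01 with 4 negative, and it was -0.25 without GSD495. Their most abundant chains, Col4a1 and Col4a2, were at -0.18 and -0.29, neither of them called.

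Markers of meningeal and perivascular fibroblasts, the cells that make most fibrillar collagen of the brain, were set beside the fibrillar genes. In KO-RA vs WT-RA, 5 of these 13 markers were called, all higher, beside 3.75% of all genes called higher. Their median log2 fold change was 0.68. The median of the 11 fibrillar collagens was 0.03, with 6 positive, among them Col1a1 (0.17), Col1a2 (0.19) and Col3a1 (0.23), and 5 negative. In KO-O2 vs WT-O2, 1 marker was called, higher, beside 2.51% of all genes, and the 2 medians were 0.16 and -0.04. They were 0.21 and 0.13 in WT-O2 vs WT-RA and -0.14 and 0.02 in KO-O2 vs KO-RA, with no marker called. The summed level of the fibroblast markers was 178 to 314 CPM in WT-RA, 264 to 370 in WT-O2, 224 to 501 in KO-RA and 220 to 386 in KO-O2. The lowest KO libraries for this sum were again GSD489 at 224 CPM and GSD494 at 220 CPM, which were also the lowest KO libraries for Col1a1, Col1a2 and Col3a1. Igf2 made up the largest part of the sum (mean 162 CPM in WT-RA and 223 in KO-RA), and was 109 CPM in GSD489 and 92.8 in GSD494. Dcn was 45.2 CPM in GSD489, the lowest of KO-RA but above the 8.06 to 34.6 CPM of WT-RA. In GSD494 it was 51.1 CPM, the highest of KO-O2. The sum is thus not an even measure of the 13 markers. In the other KO-RA libraries the fibroblast markers summed to 439 and 501 CPM and Col1a2 was 56 and 47.7 CPM. How far the number of fibroblasts in a sample set its fibrillar collagen level was not tested.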

How the data were processed

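Polyadenylated RNA of the hippocampus of 14 mice was sequenced, 1 library per mouse. The authors deposited 1 table of estimated counts per gene, made with Kallisto against a GRCm39 transcriptome and summed to genes with tximport. Versions, trimming and the scaling of the counts are not given in the sources used here. No deposited CPM was used.

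Counts were rounded and filtered by filterByExpr, which left 16637 genes. After TMM scaling, a quasi-likelihood model with a mean for each of the 4 groups was fitted to all 14 libraries (edgeR 4.0.16, R 4.3.3), without covariates. Its F-test gave the 4 comparisons and the interaction, and q is the p adjusted by Benjamini-Hochberg over every gene tested. The thresholds of the study's methods were used. Replicates are separate mice.

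CPM was divided by transcript length from GENCODE vM21 (GRCm38), which is not the authors' build, so levels per kb are approximate. Promoter windows are from RefSeq (GRCm38.p6). Pair correlations used log2 of CPM plus 0.1. The code was tested on simulated data. Depth was 27272270 to 28257496 counts per library, and intervals reflect both counting and the spread between mice.

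All 44 members were accounted for. Values per library were given for the called members and for the 2 of highest level per length in the fibrillar, basement membrane and transmembrane classes. From the pathway lists, called genes were named, except for a result that is not reported here. Other genes were named after their values were seen, namely Col2a1, Col4a3, Col5a1, Col8a1, Col8a2, Col9a3, Col13a1, Col14a1, Col15a1, Col17a1, Col18a1, Serpinh1, C1ql1, Cacng4, Cspg4, Dcn, Gpr17, Igf2, Pdgfra, Rgs5 and Sox10. The members and lists were chosen with earlier results of these data known. Alternatives were DESeq2 1.42.0, other scalings and filters, other thresholds, the 2 groups compared alone, GSD408 as room air, type IV chains alone and each library left out. Leaving out GSD489 and GSD494 together was added after seeing the data.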

Additional observations from a re-analysis of the deposited data

Results flagged for a closer look

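In groups of 4 libraries, the gap between the most extreme library and its nearest neighbour was compared with the range of the group for all 44 collagen genes in WT-RA and WT-O2, 88 groups in all. In 5 of them the gap exceeded the share of the range set by Dixon's 95% critical value for 4 samples, where chance alone gives about 4.4. Col3a1 was 37.1 CPM in WT-O2 GSD405, above the others of its group. Col4a2 was 87 CPM in WT-RA GSD401, below the others. Col25a1 was 22.8 CPM in WT-RA GSD400, below the 53.1 to 57.2 CPM of the others. Col9a2 was 4.65 CPM in WT-RA GSD399, below the others. Col20a1 was 12 CPM in WT-RA GSD398, above the 6.74 to 7.35 CPM of the others. The KO groups of 3 were too small for this comparison.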

How the results depend on the processing

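No collagen gene was called in KO-O2 vs KO-RA or for the interaction under any alternative run. In WT-O2 vs WT-RA, 1 member was called, and the count was 3 with DESeq2 in place of edgeR (Col5a2, Col24a1 and Col18a1), 2 without KO-RA GSD489 and KO-O2 GSD494 (Col24a1 and Col18a1), 0 with GSD408 as room air, and 0 at a q below 0.05. With each library left out in turn it ran from 0 to 3. In KO-O2 vs WT-O2, 3 members were called, and the count was 1 with GSD408 as room air (Col5a3) and 1 at a q below 0.05, and ran from 1 to 4 over the left-out libraries, with 1 without GSD399, GSD408 or GSD491. In KO-RA vs WT-RA, 6 members were called, and the count was 3 at a q below 0.05 and 3 at a fold change of at least 1.5, and ran from 4 to 7 over the left-out libraries. The stricter thresholds remove calls by construction, and the cause of the other changes was not tested. Other scalings moved the median of all genes by at most 0.022 on the log2 scale.

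The median log2 fold change of basement membrane collagens in KO-RA vs WT-RA was -0.01, and 0.27 without KO-RA GSD489 and KO-O2 GSD494. Over the left-out libraries it ran from -0.1 to 0.26, in KO-O2 vs WT-O2 from -0.25 to 0.09, in KO-O2 vs KO-RA from -0.05 to 0.25, and for the interaction from -0.23 to 0.08. The median of transmembrane collagens ran from -0.26 to 0.16 in KO-O2 vs KO-RA and from -0.4 to 0.07 for the interaction. That of fibrillar collagens ran from -0.15 to 0.13 in KO-O2 vs KO-RA, from -0.17 to 0.04 in KO-O2 vs WT-O2 and from -0.08 to 0.16 in KO-RA vs WT-RA. The sign of these medians is thus not stable. Col24a1 in KO-RA vs WT-RA and Col5a3 in KO-O2 vs WT-O2 were called under every alternative fit run, and no collagen gene with an unadjusted p below 0.05 reversed its sign. In a fit of WT-RA and WT-O2 alone the 1 called member was Col18a1 (q = 0.0998) in place of Col24a1. The label of GSD408 is in conflict, groups of 3 or 4 mice leave wide intervals, and genes under 50 counts a library, such as Col17a1, Col10a1 and Col6a6, could change without being called. No paired analysis was possible because no mouse number occurs in 2 groups.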
